A study of Mus musculus with 6 samples.

Results

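The Ifi200 cluster is a run of PYHIN genes on mouse chromosome 1, and the set described here was defined by 5 gene symbols, Mndal, Ifi203, Ifi204, Pyhin1 and Aim2, looked up in a table of read counts with 49492 gene rows. The symbols matched 4 rows, and all 4 passed the low-count filter of the comparison. Pyhin1 had no row of its own name. RefSeq gives Pyhin1 as an older name of Ifi209, which has a row, so Ifi209 is described beside the members and is not counted as one. RefSeq also lists the name Mndal as a synonym of Ifi203, although each has its own RefSeq entry and its own row here. The set was chosen because Mndal was higher in every library labelled KO, so the contrast between genotypes is given below as a description for the members, and no test of it is used as support.

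The libraries labelled KO (replicates 4, 5 and 6) came from NIK-CD4Cre-OT-I mice and those labelled WT (replicates 1, 2 and 3) from wild type OT-I mice, all on a C57/BL6 background and 6 to 8 weeks old. Both genotypes carry the OT-I transgene, a T cell receptor specific for an ovalbumin peptide, and Cre expressed from Cd4 sequences acts in developing T cells, including those that become CD8 cells. Naive CD8 T cells from spleen were cultured for 24 hours with plate-bound anti-CD3 (1 µg/ml) and soluble anti-CD28 (1 µg/ml), which engage the receptor and its costimulator. The comparison asks how RNA levels in such activated cells differ when T cells lack NIK, the kinase that activates the noncanonical arm of NF-kB signalling. Separate mice are not stated for the 3 libraries of a group. By the Xist counts given below each group holds both sexes, so it came from more than 1 mouse. Libraries of the same sex in a group may still share a mouse, so the spread may be partly technical.

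PYHIN proteins are named for a pyrin domain, which binds other pyrin domains, and a HIN domain, which binds DNA. Aim2 senses double-stranded DNA in the cytosol and assembles an inflammasome with the adaptor ASC and caspase-1. Ifi204 is regarded as a mouse relative of human IFI16, a sensor that signals through STING, and the p200 proteins encoded by Ifi203 and Mndal are mainly nuclear and were found as interferon-induced products. Many genes of the cluster respond to type I interferon and are expressed in myeloid cells, and several are also transcribed in lymphocytes. The cluster is larger in mice than in humans and its genes arose by repeated duplication, so parts of their sequences are nearly the same.

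The 14 PYHIN rows of the table lie between 173350879 and 174031810 on chromosome 1 (GRCm38, the mm10 assembly), a span of 680.9 kb that opens with Aim2 and closes with Ifi205. Aim2 (173350879 to 173466040) is on the plus strand. Ifi204 (173747293 to 173766943), Mndal (173849126 to 173942491) and Ifi203 (173920407 to 173942672) are on the minus strand. In GENCODE M21 a Mndal transcript reaches back to the start of Ifi203, and the annotated exons of the pair share 37 bases. The sources used here do not give the annotation the authors counted against.

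The promoter windows of the members are shown because Mndal and Ifi203 begin with nearly the same sequence. Whether likeness of the windows goes with likeness of RNA levels among the PYHIN genes was not tested. RefSeq start-site windows (250 bases before to 50 after the start, GRCm38.p6) were held for Mndal, Ifi203 and Aim2, and for Ifi209. Capitals mark matches to the core of the interferon-stimulated response element (GAAANNGAAA), the interferon-gamma activated site (TTCNNNGAA) or the kappaB site (GGGRNNYYCC), searched on both strands. N is any base, R is A or G, and Y is C or T. The windows are Mndal at chr1:173880138-173880437 (minus strand), Ifi203 at chr1:173942443-173942742 (minus strand), Aim2 at chr1:173420354-173420653 (plus strand) and Ifi209 at chr1:173630609-173630908 (plus strand).
Mndal: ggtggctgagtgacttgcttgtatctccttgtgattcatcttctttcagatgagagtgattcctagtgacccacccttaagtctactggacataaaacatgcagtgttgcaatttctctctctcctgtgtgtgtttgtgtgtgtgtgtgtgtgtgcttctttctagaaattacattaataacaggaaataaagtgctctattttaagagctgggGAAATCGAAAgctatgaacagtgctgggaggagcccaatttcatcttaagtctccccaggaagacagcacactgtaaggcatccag
Ifi203: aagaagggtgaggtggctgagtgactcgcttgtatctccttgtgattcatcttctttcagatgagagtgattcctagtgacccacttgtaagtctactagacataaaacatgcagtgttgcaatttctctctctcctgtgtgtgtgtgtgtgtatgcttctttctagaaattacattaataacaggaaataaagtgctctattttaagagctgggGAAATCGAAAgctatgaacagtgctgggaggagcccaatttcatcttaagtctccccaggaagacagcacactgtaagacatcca
Aim2: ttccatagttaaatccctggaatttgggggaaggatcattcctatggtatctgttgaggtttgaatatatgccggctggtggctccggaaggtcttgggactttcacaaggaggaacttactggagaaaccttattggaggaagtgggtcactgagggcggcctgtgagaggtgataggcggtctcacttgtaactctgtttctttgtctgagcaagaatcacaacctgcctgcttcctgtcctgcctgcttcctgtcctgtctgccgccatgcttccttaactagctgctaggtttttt
Ifi209: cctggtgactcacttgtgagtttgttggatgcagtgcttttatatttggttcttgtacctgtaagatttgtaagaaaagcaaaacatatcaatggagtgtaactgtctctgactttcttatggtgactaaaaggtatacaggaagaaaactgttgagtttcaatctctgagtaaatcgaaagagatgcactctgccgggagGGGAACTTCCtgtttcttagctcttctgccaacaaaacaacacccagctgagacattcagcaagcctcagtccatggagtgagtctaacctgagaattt

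The Mndal and Ifi203 windows were 97.6% identical over 289 aligned bases, and each held the interferon element as the same letters, starting 36 and 35 bases before its start site. Mndal has a further RefSeq start in the table, whose window also held an interferon element, and a second Ifi203 start, farther upstream, had none but held a kappaB match that starts 107 bases before it. The Aim2 window held no match to the 3 motifs. The Ifi209 window held a kappaB match that starts 49 bases before the start site. Among the 14 windows of 12 PYHIN genes, 10 windows, of 9 genes, held the interferon element, against 3.44% of 32851 mouse promoter windows of the same length. These windows are copies of one another in part, so they are not independent cases. The kappaB site was present in 2 of the 14 PYHIN windows, against 8.46% of all windows. The interferon-gamma site was present in 1 of the 14, that of Ifi202b, against 8.3% of all windows. Nothing is read from counts this small. A match is a string of letters in these windows and was not measured as a bound site.

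**Figure D1:**
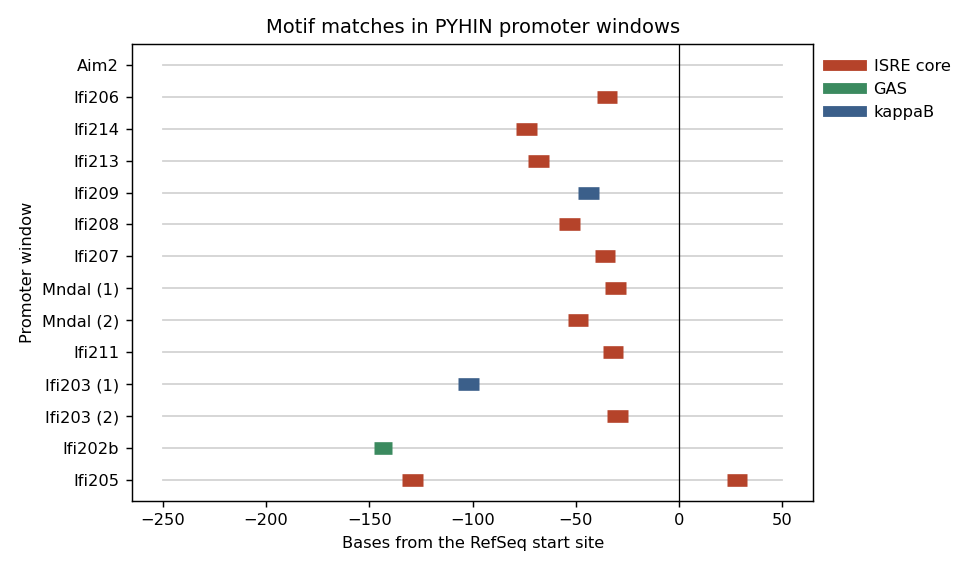
Positions of motif matches in the 14 RefSeq windows of 12 PYHIN genes, drawn as bases from each start site (x axis, start at the vertical line). Red marks the interferon element, green the interferon-gamma site and blue the kappaB site, and the Mndal and Ifi203 (2) windows hold the red mark at nearly the same distance from the start.

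Library totals ran from 41311346 to 47851445 gene counts, and 3 counts corresponded to 0.0627 to 0.0722 normalised CPM (counts scaled so that all libraries have the same size), a floor that covers counting error alone. Map3k14, which encodes NIK, had 2425, 2837 and 2271 counts in KO replicates 4, 5 and 6, against 2406, 2992 and 3025 counts in WT replicates 1, 2 and 3. Its count covers the whole gene and did not set the genotypes apart, so KO and WT are used here as the labels give them. All 12 CD8 T cell genes checked, such as Cd8a and Cd3e, were detected, with summed levels of 3687 to 3907 CPM in libraries labelled KO and 3633 to 3866 CPM in those labelled WT. KO replicate 6 stood apart within its group in 2 ways. It was the only library labelled KO with high Xist (82938 counts, against 27 and 38 in the other KO libraries, and against 92901, 22 and 90998 in WT replicates 1, 2 and 3), and it had the highest mean level of 45 interferon-stimulated genes (0.75 log2 units over the 6-library mean). Log2 folds without it are given for the members, the other tested PYHIN genes and the interferon-stimulated genes.

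Mndal and Ifi203 made up the largest pair of PYHIN rows and were both higher in each library labelled KO than in any labelled WT. Mndal, named for its likeness to the myeloid cell nuclear differentiation antigen, had 5499, 5624 and 6256 counts in KO replicates 4, 5 and 6, against 3976, 3882 and 4155 counts in WT replicates 1, 2 and 3. On the normalised scale that was 114.9, 127.8 and 150.6 CPM in libraries labelled KO, against 88.6, 85.0 and 89.7 CPM in those labelled WT. The groups did not overlap, the WT libraries lay close together and the KO libraries were more spread, with KO replicate 6 on top. The means were 131.1 CPM ± 18.0 in libraries labelled KO and 87.7 CPM ± 2.45 in those labelled WT (SD, n = 3 each). The fitted fold of Mndal was 1.49 (log2 fold 0.58, SE 0.10; 95% interval of the fold 1.28 to 1.74), and the log2 fold was 0.47 without KO replicate 6.

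Ifi203, which encodes the p203 protein of the family, was at 98.1, 103.7 and 153.2 CPM in KO replicates 4, 5 and 6, against 73.0, 82.1 and 81.5 CPM in WT replicates 1, 2 and 3. The groups did not overlap, and KO replicate 6 stood well above the other 2 libraries labelled KO. Ifi203 averaged 118.3 CPM ± 30.4 in libraries labelled KO and 78.8 CPM ± 5.10 in those labelled WT (SD, n = 3 each). Its fitted fold was 1.50 (log2 fold 0.59, SE 0.17; 95% interval of the fold 1.14 to 1.97), close to that of Mndal. Without KO replicate 6 its log2 fold was 0.36.

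The count of Mndal per count of Ifi203 was 1.17, 1.23 and 0.983 in KO replicates 4, 5 and 6, against 1.21, 1.04 and 1.10 in WT replicates 1, 2 and 3, so this ratio overlapped between the genotypes. Of all distinct stretches of 50 bases in annotated Mndal transcripts, 19.6% also occurred in transcripts of another gene, most often Ifi211. For Ifi203 the share was 12.2%, most often with the pseudogene Ifi203-ps. With stretches of 100 bases the shares were 6.38% and 2.84%. The sources used here give neither the read length nor the handling of reads with several matches, so the split of reads among these genes is uncertain. With the counts of Mndal and Ifi203 summed into 1 feature the log2 fold was 0.58.

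Libraries with high Xist came from female mice and those with low Xist from male mice, and both genotypes held both. Among male mice Mndal was at 114.9 and 127.8 CPM in the 2 libraries labelled KO, against 85.0 CPM in the single library labelled WT. Among female mice it was at 150.6 CPM in the single library labelled KO, against 88.6 and 89.7 CPM in the 2 labelled WT. Ifi203 was at 98.1 and 103.7 CPM in the males labelled KO, against 82.1 CPM in the male labelled WT, and at 153.2 CPM in the female labelled KO, against 73.0 and 81.5 CPM in the females labelled WT. Since every library labelled KO was above every library labelled WT for both genes, the order within a sex was fixed by that, and the split is a description that adds no support. A sex holds too few libraries for a test of its own.

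**Figure D2:**
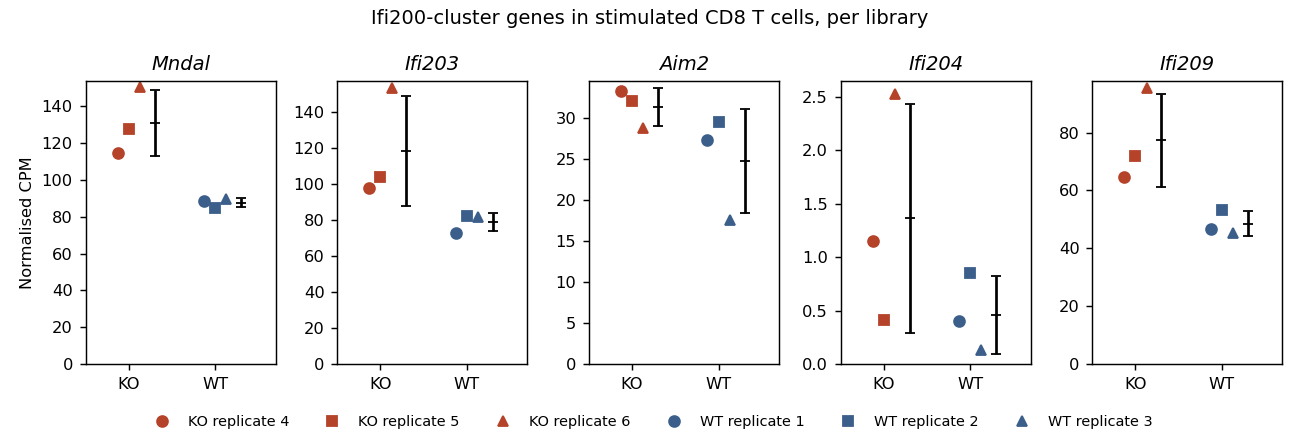
Normalised CPM (y axis, from 0, a separate scale per gene) of the 4 members and Ifi209 in each library, libraries labelled KO at left and WT at right, with the mean and SD (n = 3) as a black bar. Mndal, Ifi203 and Ifi209 have every KO point above every WT point, whereas Aim2 and Ifi204 overlap.

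Aim2, the inflammasome sensor, was at 33.3, 32.0 and 28.8 CPM in KO replicates 4, 5 and 6, against 27.3, 29.5 and 17.6 CPM in WT replicates 1, 2 and 3. The groups overlapped, since WT replicate 2 lay above KO replicate 6, and WT replicate 3 was the lowest library. Aim2 averaged 31.4 CPM ± 2.33 in libraries labelled KO and 24.8 CPM ± 6.34 in those labelled WT (SD, n = 3 each), with a fitted fold of 1.26 (95% interval 0.937 to 1.71). Its log2 fold of 0.34 was 0.14 without WT replicate 3. Aim2 did not peak in KO replicate 6, unlike Mndal, Ifi203 and Ifi204, and it shared only 0.628% of its stretches of 50 bases with another gene.

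Ifi204 was the scarcest member, with 55, 18 and 105 counts in KO replicates 4, 5 and 6, against 18, 39 and 6 counts in WT replicates 1, 2 and 3. That was 1.15, 0.409 and 2.53 CPM in libraries labelled KO, against 0.401, 0.854 and 0.129 CPM in those labelled WT. The libraries interleaved, with KO replicate 5 next to WT replicate 1 and below WT replicate 2. Its means were 1.36 CPM ± 1.07 in libraries labelled KO and 0.461 CPM ± 0.366 in those labelled WT (SD, n = 3 each). The fitted fold was 2.93 with a 95% interval from 0.824 to 10.4, and the log2 fold of 1.55 was 0.76 without KO replicate 6 and 2.35 without WT replicate 2.

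Markers of other cell types also differed among the libraries, those of macrophages and monocytes most by their median log2 fold among the lists with more than 1 tested gene (0.94, 11 of 13 positive, 1 at an unadjusted p under 0.05 in each direction). The 17 markers checked, among them Lyz2, Csf1r and C1qb, were all detected in at least 1 library, and their summed level was 79.6, 31.9 and 94.6 CPM in KO replicates 4, 5 and 6, against 39.3, 61.5 and 32.6 CPM in WT replicates 1, 2 and 3. The 3 highest libraries, KO replicates 6 and 4 and WT replicate 2, were the same for this sum and for Ifi204. The same 3 libraries were also highest for the summed dendritic cell markers and the summed natural killer (NK) cell markers. The NK order was close, at 343.2 CPM in WT replicate 2, against 337.5 and 336.2 CPM in WT replicates 3 and 1. Eomes made up most of the NK sum (282.1 of 388.9 CPM in KO replicate 6). The same libraries were highest too for the mean level of the 45 interferon-stimulated genes. Over the 6 libraries Ifi204 correlated with the macrophage and monocyte sum at 0.93 and with the interferon-stimulated mean at 0.87 (Pearson, log2 scale). For Mndal these values were 0.45 and 0.83, for Ifi203 0.61 and 0.95, and for Aim2 0.47 and 0.39. Csf1r, the receptor that defines macrophages and monocytes, was at 1.46, 0.296 and 2.84 CPM in KO replicates 4, 5 and 6, against 0.780, 0.920 and 0.324 CPM in WT replicates 1, 2 and 3. The summed neutrophil markers, of which 1 of 10 passed the filter, did not overlap. They were low, at 0.727 to 1.01 CPM in libraries labelled KO and 0.267 to 0.613 CPM in those labelled WT. Of 6 tested NK cell markers 3 had positive log2 folds (median -0.06), and 1 was lower at an unadjusted p under 0.05. NK cell sums were 261.6 to 388.9 CPM in libraries labelled KO and 336.2 to 343.2 CPM in those labelled WT. The 12 B cell markers all had negative log2 folds, with a median of -0.40 and none at an unadjusted p under 0.05, and summed levels of 339.6 to 371.2 CPM in libraries labelled KO and 346.3 to 408.9 CPM in those labelled WT. Of the 5 CD4 T cell markers 4 had negative log2 folds (median -0.47, none at an unadjusted p under 0.05), with summed levels of 55.7 to 73.0 CPM in libraries labelled KO and 62.9 to 88.8 CPM in those labelled WT. Of 8 tested dendritic cell markers 7 had positive log2 folds (median 0.17, none at that p), with summed levels of 139.4 to 247.7 CPM in libraries labelled KO and 126.7 to 221.4 CPM in those labelled WT. The summed levels of the B cell, CD4 T cell, dendritic cell and NK cell lists overlapped between the genotypes. The part of other cells in the Ifi204 values and in those of the other members was not tested. In RNA from a cell population, fewer cells that express a gene and less RNA per cell cannot be told apart.

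Compared per length of annotated exon, Mndal stood first among the members, followed by Ifi203, Aim2 and Ifi204. Mndal was at 36.1 CPM per kilobase ± 4.97 in libraries labelled KO and 24.2 CPM per kilobase ± 0.676 in those labelled WT (SD, n = 3 each). Ifi203 was at 17.6 CPM per kilobase ± 4.53 in libraries labelled KO and 11.8 CPM per kilobase ± 0.760 in those labelled WT. Aim2 was at 8.96 CPM per kilobase ± 0.664 in libraries labelled KO and 7.08 CPM per kilobase ± 1.81 in those labelled WT. Ifi204 was at 0.382 CPM per kilobase ± 0.302 in libraries labelled KO and 0.130 CPM per kilobase ± 0.103 in those labelled WT. No library ranges of neighbours in this order overlapped within a genotype. Ifi209 fell between Mndal and Ifi203 by its mean, at 21.8 CPM per kilobase ± 4.51 in libraries labelled KO and 13.7 CPM per kilobase ± 1.22 in those labelled WT, and it overlapped Ifi203 in the libraries labelled KO. Levels per kilobase of Mndal and Ifi203 depended on the annotated length, at 64.7 and 31.5 in libraries labelled KO and 43.3 and 21.0 in those labelled WT when the longest transcript was used, with the order of the members kept. On that length Ifi209, at 22.5 in libraries labelled KO and 14.1 in those labelled WT, fell below Ifi203, so its place relative to Ifi203 depends on the length used.

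**Figure D3:**
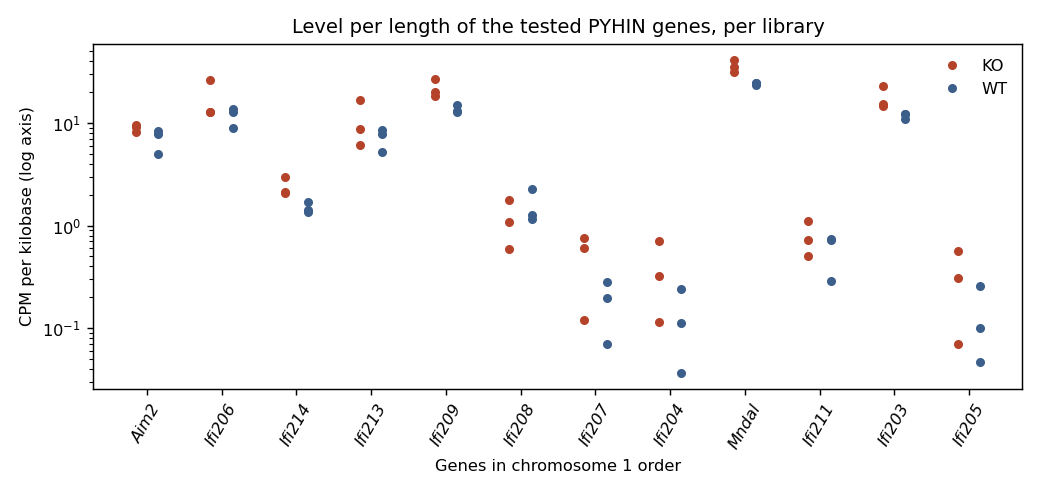
CPM per kilobase of annotated exon (y axis, log scale) for the 12 tested PYHIN genes in chromosome order, each point 1 library, KO in red at left and WT in blue at right of each gene. Mndal is the highest, and Ifi204, Ifi205 and Ifi207 lie far lower with wide spread.

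Of the 4 members, 4 had a positive log2 fold, with a median of 0.58, where 52.4% of the 15186 tested genes had a positive log2 fold and the median over all was 0.01. The members with all KO libraries above all WT libraries were 2 of 4, Mndal and Ifi203, and 6.68% of all tested genes had that pattern. EdgeR's quasi-likelihood test called 0 of 4 members at a Benjamini-Hochberg adjusted p under 0.05, and 0.00659% of all tested genes, 1 gene, which is no PYHIN gene. At an unadjusted p under 0.05, 2 members were higher, with 3.82% of tested genes in that direction. DESeq2 called 1 member, Mndal, and 0.586% of all tested genes. The values of Mndal in this contrast chose the set, so nothing is read from these counts about the members.

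The other PYHIN genes had 10 rows, of which 8 passed the filter. Ifi209, the gene once named Pyhin1, was at 64.7, 71.9 and 95.2 CPM in KO replicates 4, 5 and 6, against 46.8, 53.4 and 45.2 CPM in WT replicates 1, 2 and 3. Its groups did not overlap, and the fitted fold was 1.59 (95% interval 1.26 to 2.02), with a log2 fold of 0.50 without KO replicate 6. Ifi214, which shares 14.5% of its stretches of 50 bases with Ifi209, was at 16.7, 17.4 and 23.9 CPM in KO replicates 4, 5 and 6, against 11.6, 13.6 and 10.9 CPM in WT replicates 1, 2 and 3. Its groups did not overlap either, with a fitted fold of 1.61 (95% interval 1.24 to 2.08) and a log2 fold of 0.68, which was 0.50 without KO replicate 6. Of the stretches of 50 bases in Ifi209, 33.4% also occur in Ifi214, and of those of 100 bases 16.9%. Since the handling of reads with several matches is not given, these 2 rows may not be independent measurements.

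Ifi206 and Ifi213 overlapped between the genotypes, and their estimates were near 0 without KO replicate 6. Ifi206 was at 38.8, 39.5 and 79.9 CPM in KO replicates 4, 5 and 6, against 27.4, 42.2 and 39.2 CPM in WT replicates 1, 2 and 3, and its log2 fold of 0.54 was 0.11 without KO replicate 6. Ifi213 was at 41.7, 60.5 and 115.2 CPM in KO replicates 4, 5 and 6, against 35.5, 57.9 and 53.4 CPM in WT replicates 1, 2 and 3, and its log2 fold of 0.57 was 0.06 without that library. Ifi208 ran the other way, at 3.14, 5.66 and 9.41 CPM in KO replicates 4, 5 and 6, against 12.0, 6.72 and 6.06 CPM in WT replicates 1, 2 and 3, with overlapping groups and a log2 fold of -0.45. That estimate rested on single libraries, at -0.91 without KO replicate 6 and -0.08 without WT replicate 1.

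The remaining tested genes were scarce. Ifi205 was at 1.30, 0.295 and 2.38 CPM in KO replicates 4, 5 and 6, against 0.423, 1.07 and 0.194 CPM in WT replicates 1, 2 and 3. Ifi207 was at 2.07, 0.409 and 2.58 CPM in KO replicates 4, 5 and 6, against 0.668, 0.963 and 0.237 CPM in WT replicates 1, 2 and 3. For both, as for Ifi204, the highest libraries were KO replicates 6 and 4 and WT replicate 2. Ifi205 correlated with the macrophage and monocyte sum at 0.98 and with the interferon-stimulated mean at 0.83, and Ifi207 at 0.97 and 0.80. Ifi211 ranged from 0.909 to 2.00 CPM in libraries labelled KO and from 0.518 to 1.31 CPM in those labelled WT, and 72.8% of its stretches of 50 bases occur in other genes. Without KO replicate 6 the log2 fold was 0.51 for Ifi205 (1.23 with it), 1.00 for Ifi207 (1.43 with it) and 0.09 for Ifi211 (0.43 with it). Ifi202b, whose product lacks a pyrin domain and restrains Aim2, had 0 counts in every library, and Ifi203-ps had 0 to 4. Of the 12 tested PYHIN genes, 10 were highest in KO replicate 6, the exceptions being Aim2 and Ifi208. EdgeR called 0 of the 8 other PYHIN genes, with 2 higher at an unadjusted p under 0.05 (3.82% of all tested genes). DESeq2 called 2, Ifi209 and Ifi214, where it called 0.586% of all tested genes in either direction.

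**Figure D4:**
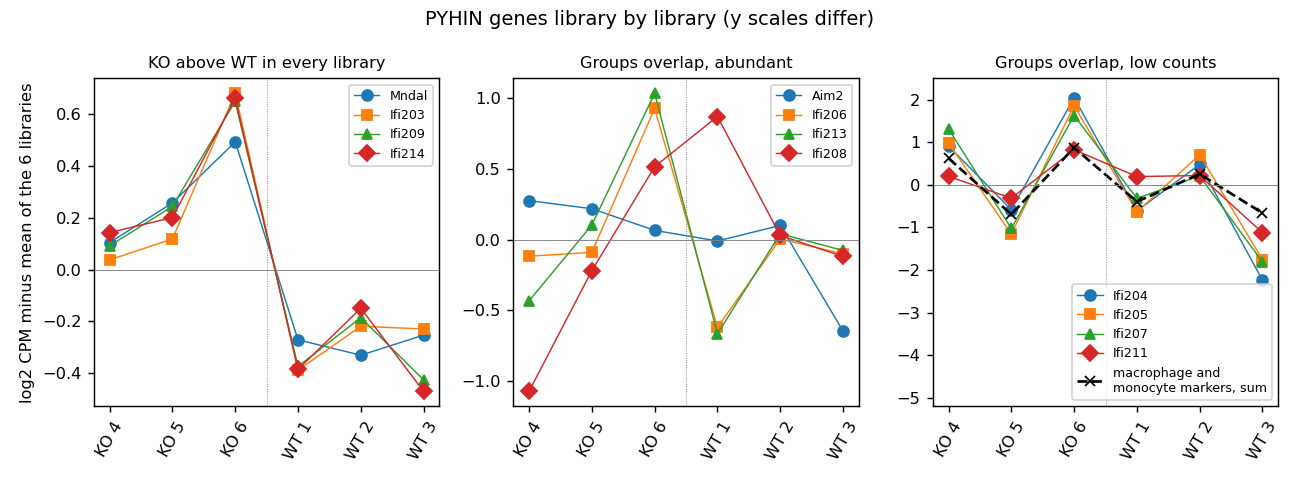
Deviation of each PYHIN gene from its own mean over the 6 libraries (y axis, log2 units, a separate scale per panel) in KO replicates 4, 5 and 6 and WT replicates 1, 2 and 3 (x axis), with lines joining the values of a gene. Mndal, Ifi203, Ifi209 and Ifi214 are above 0 in all KO libraries and below 0 in all WT libraries, and Ifi204, Ifi205 and Ifi207 are highest in the same 3 libraries as the summed macrophage and monocyte markers (dashed line). Dendritic cell and NK cell marker sums and the mean of the interferon-stimulated genes, which are not drawn, were highest in those 3 libraries too. The NK cell sums of the WT libraries lay close together, at 336.2 to 343.2 CPM.

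**Figure D5:**
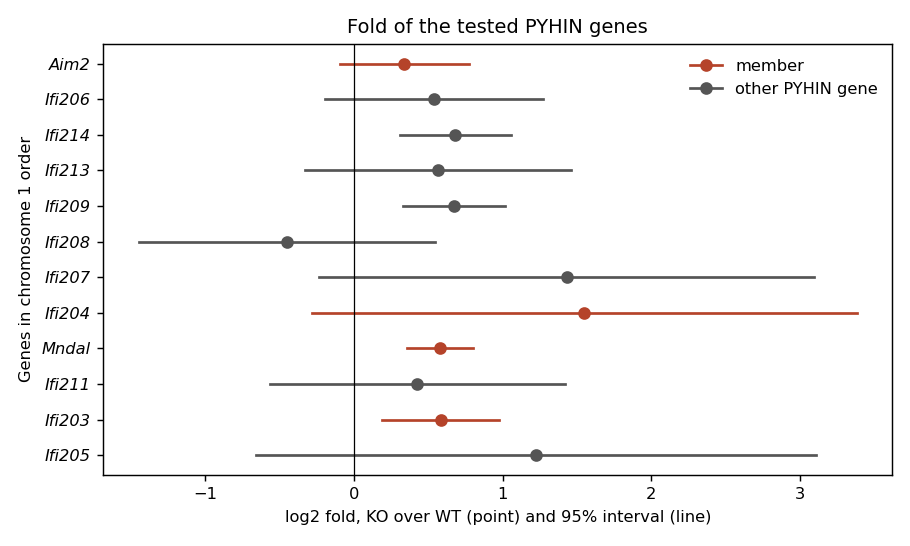
Fitted log2 fold, KO over WT (x axis, point), with its 95% interval over libraries (line) for the 12 tested PYHIN genes in chromosome order, members in red. The intervals of Mndal, Ifi203, Ifi209 and Ifi214 lie above 0 and are not adjusted for the number of genes, and those of the scarce genes Ifi204, Ifi205 and Ifi207 are the widest.

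For the nearest tested genes on either side of the cluster, Dusp23, Slamf8, Fh1 and Kmo, the libraries of the genotypes overlapped. On the Aim2 side the nearest was the phosphatase gene Dusp23, 717.9 kb away, at 1.28 CPM ± 0.171 in libraries labelled KO and 1.43 CPM ± 0.110 in those labelled WT (SD, n = 3 each; edgeR adjusted p = 0.85). The next was Slamf8, a receptor of macrophages, at 4.62 CPM ± 3.51 in libraries labelled KO and 1.56 CPM ± 1.13 in those labelled WT (SD, n = 3 each; edgeR adjusted p = 0.71). Beyond Ifi205 lay Fh1, the fumarate hydratase of the citric acid cycle, 1568.6 kb away, at 86.7 CPM ± 6.61 in libraries labelled KO and 81.9 CPM ± 7.98 in those labelled WT (SD, n = 3 each; edgeR adjusted p = 0.82), and then Kmo, an enzyme of tryptophan breakdown, with an edgeR adjusted p of 0.91. Among 18 tested genes of the chromosome 1 neighbourhood, 1 had every library labelled KO above every library labelled WT, near the 6.68% of all tested genes. It was Kcnj10, a potassium channel gene named here after its values were seen, at 0.794, 0.546 and 0.602 CPM in KO replicates 4, 5 and 6, against 0.512, 0.438 and 0.367 CPM in WT replicates 1, 2 and 3 (edgeR adjusted p = 0.70).

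A list of inflammasome genes held the adaptor, proteases and products that act with Aim2 and also sensors of other inflammasomes, such as Nlrp3, Nlrc4, Naip5 and Nlrp1b, and edgeR called 0 of the 12 tested. For 4 of the 12 every library labelled KO was above every library labelled WT, against 6.68% of all tested genes. The summed level of the list was 186.4 to 205.0 CPM in libraries labelled KO and 175.0 to 177.8 CPM in those labelled WT. DESeq2 called 0. At an unadjusted p under 0.05, 3 were higher in libraries labelled KO, against 3.82% of all tested genes, and none was lower. Leaving out 1 library gave from 0 (without WT replicate 3) to 4 (without KO replicate 5) higher at that p, and 1 when KO replicate 4, KO replicate 6 or WT replicate 1 was left out. Pycard, which encodes the adaptor ASC, was at 33.6, 37.4 and 34.8 CPM in KO replicates 4, 5 and 6, against 38.7, 31.7 and 32.6 CPM in WT replicates 1, 2 and 3. Casp1, the protease activated on that platform, averaged 3.79 CPM ± 1.42 in libraries labelled KO and 3.13 CPM ± 0.651 in those labelled WT (SD, n = 3 each). Gsdmd, the pore-forming target of caspase-1, was at 39.9, 42.3 and 44.6 CPM in KO replicates 4, 5 and 6, against 37.6, 38.7 and 37.7 CPM in WT replicates 1, 2 and 3 (log2 fold 0.15; edgeR adjusted p = 0.65). The cytokine gene Il18 (log2 fold 0.80; edgeR adjusted p = 0.63) and the sensor gene Nlrp1b (log2 fold 1.09; edgeR adjusted p = 0.67) each had a mean under 1 CPM, and the apoptotic protease gene Casp8 was called by neither tool (log2 fold 0.14; edgeR adjusted p = 0.70).

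Genes of cytosolic DNA sensing through cGAS and STING had 18 tested members, a median log2 fold of 0.03 and 0 calls by edgeR or DESeq2, with 1 higher at an unadjusted p under 0.05, a share near the 3.82% of all tested genes, so nothing is read from it. That gene was Prkdc, a kinase of DNA repair, at 144.8, 135.7 and 131.7 CPM in KO replicates 4, 5 and 6, against 129.4, 114.6 and 118.3 CPM in WT replicates 1, 2 and 3 (log2 fold 0.19; edgeR adjusted p = 0.63). Mb21d1, which encodes the DNA sensor cGAS, averaged 19.5 CPM ± 2.42 in libraries labelled KO and 19.0 CPM ± 1.62 in those labelled WT (SD, n = 3 each). Tmem173, which encodes the adaptor STING, averaged 83.6 CPM ± 2.54 in libraries labelled KO and 78.1 CPM ± 6.73 in those labelled WT (SD, n = 3 each). The phosphodiesterase gene Enpp1 (log2 fold -0.63), the kinase gene Ikbke (log2 fold 0.15) and the repair nuclease gene Mre11a (log2 fold 0.09) had edgeR adjusted p of 0.71, 0.74 and 0.75.

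Type I and lambda interferon genes were at or under the floor of 3 counts in every library. Ifnb1 had 0 counts in all libraries, which allows at most 3 counts in each, and the listed alpha interferon genes had at most 2 counts in any library. Of 16 tested genes for interferons, their receptors and signal transducers, edgeR and DESeq2 called 0, and unadjusted p under 0.05 was reached by 1 in each direction, against 3.82% of all tested genes higher and 3.44% lower. Usp18, an interferon-induced brake on the receptor, was at 17.3, 11.1 and 22.7 CPM in KO replicates 4, 5 and 6, against 5.15, 11.3 and 7.49 CPM in WT replicates 1, 2 and 3 (log2 fold 1.09; edgeR adjusted p = 0.61). Ifng, the gene for interferon gamma, was lower, at 67.5, 24.2 and 65.0 CPM in KO replicates 4, 5 and 6, against 69.9, 108.3 and 153.9 CPM in WT replicates 1, 2 and 3 (log2 fold -1.08; edgeR adjusted p = 0.69). Irf7, a factor that drives interferon genes, differed by a log2 fold of 0.75 and the kinase gene Jak1 by 0.11, with edgeR adjusted p of 0.70 and 0.74.

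Interferon-stimulated genes outside the cluster had positive estimates for 43 of 45, against 52.4% of all tested genes, with a median log2 fold of 0.44. Their mean level still overlapped between the genotypes, at 0.155, -0.08 and 0.75 log2 units from the 6-library mean in KO replicates 4, 5 and 6, against -0.43, -0.07 and -0.32 in WT replicates 1, 2 and 3. KO replicate 5 thus lay just under WT replicate 2, and KO replicate 6 was far above the rest. Every library labelled KO was above every library labelled WT for 14 of the 45, against 6.68% of all tested genes. EdgeR called 0, and 18 were higher and none lower at its unadjusted p under 0.05, where 3.82% of all tested genes were higher. DESeq2 called 9, all higher, against 0.586% of all tested genes in either direction. Without KO replicate 6 the median log2 fold was 0.19, with 39 positive and 11 higher at an unadjusted p under 0.05, and without WT replicate 1 the number higher was 9. Oas1a, a synthase triggered by double-stranded RNA, was at 3.78, 3.27 and 6.79 CPM in KO replicates 4, 5 and 6, against 1.31, 1.60 and 0.777 CPM in WT replicates 1, 2 and 3 (edgeR adjusted p = 0.53). Ifit2, an RNA-binding antiviral gene, was at 27.2, 28.0 and 34.3 CPM in KO replicates 4, 5 and 6, against 22.4, 18.5 and 17.6 CPM in WT replicates 1, 2 and 3 (edgeR adjusted p = 0.53). In both genes KO replicate 6 was the highest library, as it was for Mndal, Ifi203 and Ifi204.

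The genes whose levels ran most like those of Mndal over the 6 libraries were Arfgef1, Iigp1, Parp14, AU020206 and Lipa, out of 9649 genes that averaged 5 CPM or more. Their Pearson correlations with Mndal on log2 CPM ran from 0.982 for Lipa to 0.997 for Arfgef1, over 6 libraries that also share the gap between genotypes, so these values are a description. Iigp1, an interferon-inducible GTPase, was at 173.3, 180.1 and 222.8 CPM in KO replicates 4, 5 and 6, against 135.9, 130.3 and 142.2 CPM in WT replicates 1, 2 and 3 (edgeR adjusted p = 0.53). Parp14, an interferon-induced mono-ADP-ribosyltransferase, was at 292.1, 328.2 and 368.4 CPM in KO replicates 4, 5 and 6, against 259.9, 249.7 and 250.6 CPM in WT replicates 1, 2 and 3 (edgeR adjusted p = 0.53). Both placed the 6 libraries with KO replicate 6 on top and no overlap between the genotypes. Within the cluster, Ifi209 (0.958), Ifi203 (0.941) and Ifi214 (0.937) correlated most with Mndal, and Aim2 (0.446) and Ifi208 (-0.12) least among the 7 PYHIN genes that were abundant enough to be ranked.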

How the data were processed

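RNA from 6 libraries, 3 labelled KO and 3 labelled WT, was prepared with Trizol and standard Illumina protocols, per the labels' protocols. The authors deposited raw read counts per gene symbol in a table of 49492 rows. HTSeq 0.9.1, DESeq2 and the mm10 build are named without a role, per the submitters' processing notes. The sources used here name no aligner, annotation or strand setting, so overlapping and antisense genes may share reads. All columns were used. Coordinates and lengths came by symbol from GENCODE M21 on GRCm38, and promoter windows from RefSeq on GRCm38.p6, which held 12 of the PYHIN genes but neither Ifi204 nor a gene named Pyhin1.

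No pair of libraries agreed within sampling noise (mean chi-square per gene from 21.2 to 58.0), so none was counted as a duplicate. The lowest values were 21.2 for WT replicates 2 and 3 and 21.2 for KO replicate 4 with WT replicate 1. The highest was 58.0 for WT replicates 1 and 2, so likeness did not follow genotype. With edgeR 4.0.16 (R 4.3.3), genes were filtered by filterByExpr, scaled by TMM and fitted with robust glmQLFit, and glmQLFTest tested 15186 genes on the deposited counts, with Benjamini-Hochberg adjusted p under 0.05 as a call. The log2 fold is KO over WT, with an SE computed as its size over the root of F. Intervals are at the 95% level. CPM used the TMM factors. The procedure was tested on simulated data. The alternatives tried were upper-quartile and RLE factors, DESeq2 1.42.0, limma-voom (limma 3.58.1), a fit without the low-count filter, a filter of 1 CPM or more in 3 libraries, no robust estimation, and each library left out in turn. A term for sex and the summed Mndal and Ifi203 counts were chosen after seeing the data.

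The members and gene lists were chosen with earlier results of these data known. Named were the members, other PYHIN genes, up to 4 genes per list with the smallest p, the 5 genes most like Mndal, and flanking genes. Named for their role or after their values were seen were Pycard, Casp1, Mb21d1, Tmem173, Ifnb1, Lyz2, Csf1r and C1qb.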

Additional observations from a re-analysis of the deposited data

How the results depend on the processing

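The log2 folds of the 4 members kept their sign under every alternative that gave a value, and each stayed within 1 SD of its main value (the SD of log2 CPM between libraries of a genotype, from 0.14 for Mndal to 1.22 for Ifi204). Ifi204 and Ifi207 had no value with at least 1 CPM in 3 libraries, since that filter removes them. Leaving out 1 library gave log2 folds from 0.47 to 0.67 for Mndal and from 0.36 to 0.70 for Ifi203. The range was 0.14 to 0.48 for Aim2 and 0.76 to 2.35 for Ifi204. In each gene the largest move exceeded the SE of its fold, but the upward moves of Mndal, Ifi203 and Aim2 did not. A term for sex gave 0.64 for Mndal and 0.64 for Ifi203. The count of called genes depended on the tool. Against 1 gene in all, edgeR called 10 without a low-count filter and DESeq2 called 89 (64 higher and 25 lower), and edgeR with 1 library left out called from 1 to 119, the highest of these without WT replicate 1. DESeq2 called 1 member, 2 other PYHIN genes and 9 interferon-stimulated genes, where edgeR called 0 of each, and without WT replicate 1 edgeR called 1 interferon-stimulated gene (from 0 to 1 over the libraries left out). The cause was not tested. No paired analysis was possible because the genotypes have no replicate number in common. Depth limits the scarce genes: Ifi204 rests on 6 to 105 counts per library.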
